A study of Mus musculus with 2 samples.

Results

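Krüppel-like factors (KLFs) are transcription factors with a run of zinc fingers at the C terminus. This account describes the open chromatin of 10 KLF genes in the embryonic mouse heart: *Klf2*, *Klf3*, *Klf4*, *Klf5*, *Klf6*, *Klf7*, *Klf9*, *Klf10*, *Klf13* and *Klf15*. They were taken from a named list among the 21938 protein-coding genes of GENCODE M21 (GRCm38/mm10). For each gene, every annotated transcription start with 1 kb on both sides was examined, together with the gene body and 50 kb on both sides of it, called the locus here. Starts whose windows met were joined into a start cluster.

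Accessible chromatin was profiled by ATAC-seq, in which the transposase Tn5 cuts and tags open DNA, in whole hearts of wildtype FVB mouse embryos at the embryonic stage E11.5 (49 to 51 somites). Both replicates belong to this single group, and each was a pool of 2 hearts and about 50000 nuclei. No treated, mutant or later group was analysed here, so values were compared between genes and between replicates and no test between conditions was run. A whole heart holds myocardium, endocardium, epicardium and blood. Whether a region is open in few cells or weakly open in many cannot be told apart in such a sample.

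KLFs bind GC-rich DNA and CACCC boxes, and some members activate transcription while others recruit the corepressors CtBP or Sin3. *Klf2* and *Klf4* are known from endothelium and endocardium, where blood flow raises their transcription through the kinases MEKK3 and ERK5 and the transcription factors of the MEF2 family. *Klf13* is known as a partner of GATA4 in the developing heart, and *Klf15* as a restraint on cardiomyocyte growth in the adult heart.

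The deposited lists held 118027 peaks in replicate 1 and 114783 in replicate 2, and 98924 regions were covered by a peak in both (shared regions, overlap of at least 1 bp). The value used throughout is the fold enrichment that the authors' peak caller gave to each peak, which divides the reads piled up at the summit by the average background of the genome after 1 is added to each. From its steps, 1 read was worth 0.272 in replicate 1 and 0.251 in replicate 2, and the lowest summit had 9 reads in both. Marker genes of the heart were accessible at a start in both replicates. These were 5 of 5 cardiomyocyte, 4 of 4 endothelial and endocardial and 3 of 3 epicardial genes. The share over all protein-coding genes was 67.6%. Of blood genes, 2 of 3 had a shared region, as had 1 of 2 each of neural, skeletal muscle and liver genes. *Ptprc*, *Neurod1*, *Myf5* and *Alb* had none. A region at a start did not by itself separate these lists, since the endothelial gene *Pecam1* and the liver gene *Ttr* both had 4.89 and 3.77.

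All 10 KLF genes had a shared region within 1 kb of a start. Among all protein-coding genes the share was 67.6% (14820 of 21938). The KLF genes had 19 start clusters, of which 14 met a shared region, against 42% of the start clusters of all protein-coding genes. *Klf2*, *Klf4*, *Klf5*, *Klf6*, *Klf7*, *Klf9* and *Klf10* had every cluster accessible, as did 31.1% of protein-coding genes. No test was made of these shares. The 5 clusters without a shared region were 3 inner clusters of *Klf3*, 1 inner start of *Klf13* and the downstream cluster of *Klf15*, which holds 3 annotated starts. Of these 5, 3 met a peak in replicate 2 alone and 1 in replicate 1 alone, and 17 of the 19 clusters met a peak of replicate 2 and 15 a peak of replicate 1.

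A stretch of sequence near the start of *Klf2*, *Klf6* and *Klf7* is shown first, because the same arrangement of letters lay at all 3 accessible starts. In the lines that follow, given along the strand of each gene, the first capitals mark TTATATA and the second the box that MEF2 factors recognise, searched as CTA and TAG with any 4 bases between them (GRCm38, chr8:72318928-72318956 on the plus strand, chr13:5861218-5861245 on the plus strand and chr1:64121809-64121836 on the minus strand).
Klf2: ggcTTATATAccgcggCTAAATTTAGgct
Klf6: gccTTATATAccctgCTAAAAATAGcct
Klf7: cctTTATATAgccctCTAAAAATAGctt
The MEF2 match read CTAAATTTAG at *Klf2* and CTAAAAATAG at both *Klf6* and *Klf7*. TTATATA ended 6 bases before the match at *Klf2* and 5 bases before it at *Klf6* and *Klf7*. The match lay 89 bases before the single start of *Klf2*, 249 bases before the first start of *Klf6* and 330 bases before the inner start of *Klf7*. It was 13, 52 and 93 bases from the replicate 1 summit at the 3 genes.

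In 200 bp around the replicate 1 summit of the highest region at a start, the MEF2 box was found at *Klf2* and *Klf6*, 2 of 10 genes. In 20831 shared regions at protein-coding starts it was found in 2.20%, and in all 98850 regions searched in 4.29%. The window edge cut the match at *Klf7*. With 300 bp, a length chosen after this was seen, 3 of 10 genes held it, against 3.39% of regions at protein-coding starts and 6.06% of all regions. In the RefSeq promoters, 300 bp placed by the annotated start, 1 of the 8 KLF genes with an entry held it, against 3.69% of all promoters. Both strands were searched, and a palindromic match was counted once.

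TTATATA ending at most 12 bases before the MEF2 box on the same strand was a pattern chosen after the sequences had been read, so its count is a description only. It occurred in 4 of the 20831 regions at protein-coding starts with 300 bp windows (0.0192%) and in 9 of all 98850 regions (0.0091%). The protein-coding genes nearest to those 4 regions were *Klf2*, *Klf6*, *Klf7* and *Mettl2*. Among 32851 RefSeq promoters, 300 bp long with 250 bases before the start, 4 held it (0.0122%). A match describes letters of the C57BL/6J reference genome, while the embryos were FVB, and binding was not measured.

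The accessible sequence around these matches is given next, so that the distance to other elements can be seen. Capitals mark matches to the motifs searched, here the MEF2 box, and each window is 300 bp around the summit, cut where an annotated untranslated exon begins (GRCm38, chr8:72318817-72319032 plus strand, chr13:5861145-5861444 plus strand, chr1:64121570-64121869 minus strand).
Klf2: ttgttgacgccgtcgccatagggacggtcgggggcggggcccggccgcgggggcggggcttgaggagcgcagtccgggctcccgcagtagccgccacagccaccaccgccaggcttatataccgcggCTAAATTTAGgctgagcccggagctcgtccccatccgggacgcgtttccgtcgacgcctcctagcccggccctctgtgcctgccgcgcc
Klf6: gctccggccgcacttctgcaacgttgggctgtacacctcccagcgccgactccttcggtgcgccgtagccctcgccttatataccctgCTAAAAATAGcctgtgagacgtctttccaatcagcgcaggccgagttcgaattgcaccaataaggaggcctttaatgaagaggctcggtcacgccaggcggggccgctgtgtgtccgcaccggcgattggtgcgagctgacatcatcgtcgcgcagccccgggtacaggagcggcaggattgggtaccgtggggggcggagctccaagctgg
Klf7: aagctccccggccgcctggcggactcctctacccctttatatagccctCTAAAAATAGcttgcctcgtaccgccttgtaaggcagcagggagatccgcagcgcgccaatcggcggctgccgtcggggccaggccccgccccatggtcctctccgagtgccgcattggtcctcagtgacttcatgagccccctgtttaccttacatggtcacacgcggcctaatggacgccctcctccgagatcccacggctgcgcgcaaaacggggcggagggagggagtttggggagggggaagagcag
The 216 bases shown for *Klf2* end at its start and had a GC content of 71.8%. The windows of *Klf6* and *Klf7* had 62.3% and 64.0%. At *Klf7* the window lies in an intron of the transcripts that begin farther upstream, and before the inner start.

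**Figure D1:**
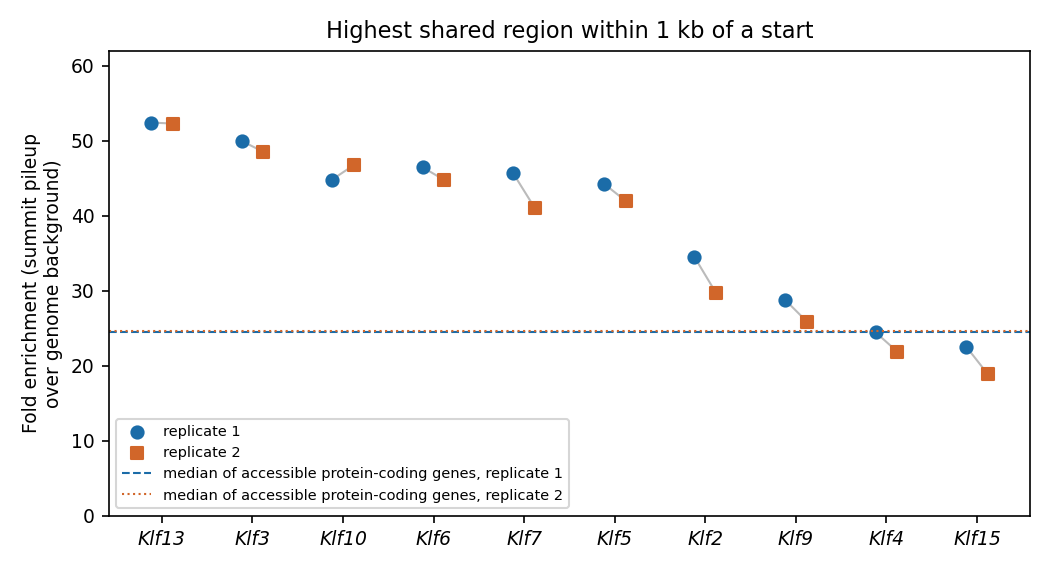
Fold enrichment (vertical axis, summit pileup over genome background) of the highest shared region within 1 kb of a start of each KLF gene (horizontal axis, ordered by mean). Circles are replicate 1, squares are replicate 2, and the dashed and dotted lines are the medians of 14820 accessible protein-coding genes, 24.4 and 24.6. *Klf13* is highest at 52.4 and 52.3, and *Klf4* and *Klf15* lie at or under the medians.

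The plot of fold enrichment at starts shows the order of the 10 genes. Their median was 43.2 (mean of both replicates), against 24.5 for all accessible protein-coding genes. In both replicates, 8 of 10 lay above the median gene. *Klf4* was at the median in replicate 1 and under it in replicate 2, and *Klf15* was under it in both.

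*Klf13*, the partner of GATA4 that also recruits Sin3, had the highest start, at 52.4 in replicate 1 and 52.3 in replicate 2 (192 and 207 reads at the summit). These values were at percentiles 98.3 and 99.0 of accessible protein-coding genes. *Klf3*, a repressor that recruits CtBP, followed with 50.0 and 48.5, at percentile 97.3 in both. Its replicates did not overlap with those of *Klf13*.

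*Klf10*, an early response gene of TGF-beta signalling, had 44.8 and 46.8, and was the 1 gene of the 10 that was higher in replicate 2. *Klf6*, an activator with a known role in liver and vessel development, had 46.4 and 44.7. *Klf7*, best known from neurons, had 45.6 and 41.0. The replicate ranges of *Klf10* and *Klf6* overlapped, as did those of *Klf6* and *Klf7*, and those of *Klf10* and *Klf7*, so the order of these 3 genes is not resolved.

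*Klf5*, which acts in smooth muscle and in pluripotent cells, had 44.3 and 42.0, within the range of *Klf7*. *Klf2* had 34.5 and 29.7, at percentiles 76.6 and 64.1, and *Klf9*, a gene induced by glucocorticoid and thyroid hormone, had 28.8 and 25.9. Both were above the median gene, and their ranges were apart from each other and from all other members.

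*Klf4*, the second flow-responsive member and a reprogramming factor, had 24.4 and 21.9 (89 and 86 reads). *Klf15* was lowest with 22.5 and 18.9 (82 and 74 reads), at percentiles 44.3 and 35.0. The ranges of these 2 genes overlapped. Over all 45 pairs of members, the replicate ranges were apart in 40, where a range is only the span of 2 values.

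The difference between replicates at a start was small beside that between genes. Replicate 1 was higher for 9 of 10 genes. Its ratio to replicate 2 ran from 0.958 at *Klf10* to 1.20 at *Klf15*, and the SD of the 2 values from 0.0948 at *Klf13* to 3.42 at *Klf2* (n = 2). Over all protein-coding starts the log2 ratio of replicate 1 to replicate 2 had a median of 0.03 and an SD of 0.21.

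The accessible regions at KLF starts were also long. The widest region at a start was 4310 bp at *Klf13*, 4225 bp at *Klf10*, 3582 bp at *Klf6* and 3525 bp at *Klf7*. These 4 lay at percentiles 98.3 to 99.4 of accessible protein-coding genes. The narrowest was that of *Klf2*, 1825 bp, at percentile 74.1, followed by *Klf4* with 1875 bp and *Klf5* with 1945 bp. All 10 were wider than the median gene, 1371 bp, and the median over the KLF genes was 2518.5 bp. *Klf4* and *Klf15* (2217 bp) were thus above the median in width and not in fold enrichment.

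**Figure D2:**
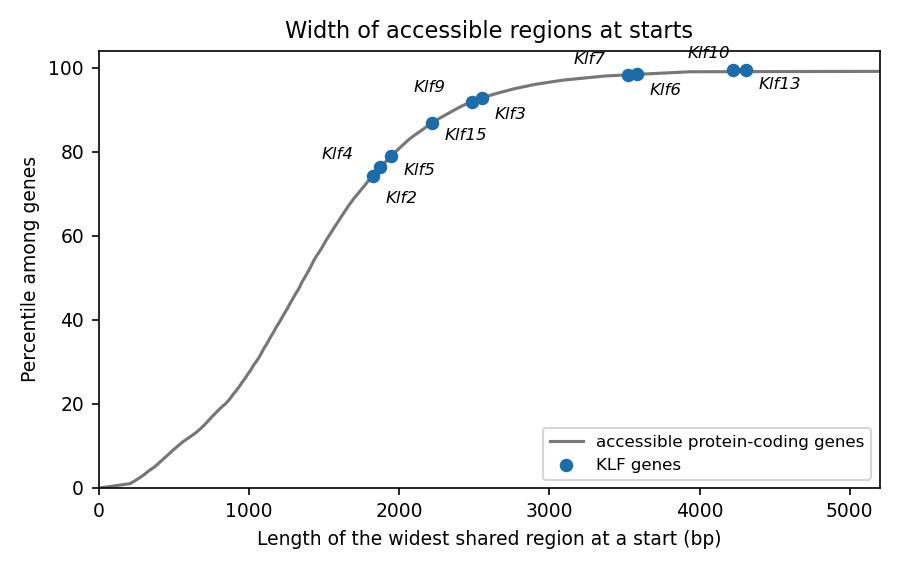
Length of the widest shared region at a start (horizontal axis, bp) and its percentile (vertical axis) for the 10 KLF genes (points) on the curve of 14820 accessible protein-coding genes. Every point lies at percentile 74.1 or above, from *Klf2* at 1825 bp to *Klf13* at 4310 bp.

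Where the summit lay within these regions differed. At *Klf2* it was 67 and 66 bases before the start in the 2 replicates, at *Klf5* 114 and 119, at *Klf13* 179 and 181, and at *Klf6* 188 and 209. At *Klf4* the distances were 145 and 166 bases, at *Klf9* 311 and 170, and at *Klf3* 302 and 41. These 7 genes had their summits just upstream of the first start in both replicates.

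At *Klf15* the summit was inside the gene, in an intron, 1075 bases after the first start in replicate 1 and 1036 in replicate 2. At *Klf10* a single peak spanned all 4 annotated starts, and the summits of the replicates were 1688 bases apart. The replicate 1 summit was 214 bases before the first start and the replicate 2 summit 150 bases before an inner start. The fold enrichments of *Klf10* in the replicates therefore describe different positions.

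The summit window of *Klf15* is shown because among the highest start regions of the 10 genes it was the 1 that held GATAA, the letters recognised by GATA factors, and it also held CACCC (capitals mark the matches, with TTATC and GGGTG as the reverse strand; GRCm38, chr6:90463552-90463751, plus strand).
Klf15: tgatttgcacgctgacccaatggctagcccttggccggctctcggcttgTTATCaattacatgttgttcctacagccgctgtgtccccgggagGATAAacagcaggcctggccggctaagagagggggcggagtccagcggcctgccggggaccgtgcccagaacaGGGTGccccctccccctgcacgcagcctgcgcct
GATAA was found there 2 times. Of regions at protein-coding starts 13.8% held it, and of all regions 31.4%. CACCC, the letters that KLFs themselves recognise, was found in the summit windows of *Klf2*, *Klf3*, *Klf5* and *Klf15*, 4 of 10, beside 49.8% of regions at protein-coding starts. In the RefSeq promoters, which exist in the table used for 8 of the 10 genes (GRCm38.p6), 6 of 8 held CACCC, beside 57.5% of all promoters.

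CCGGAAG, the core of ETS factors, the cAMP response element, the glucocorticoid response element and the CArG box of serum response factor had no match in the 14 windows at KLF starts. ACATTCC, the core of TEAD factors, had 1, in the inner region of *Klf4*. These letters being absent from 200 bp says nothing of binding elsewhere. The 14 windows had a median GC content of 64.8% and a ratio of observed to expected CpG of 0.793. All regions at protein-coding starts had 62.5% and 0.691.

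Further clusters were reached by the same region as the first in *Klf6*, *Klf9* and *Klf13*, so that the highest value in their windows is that of the first start. The region over the coding exon of *Klf4* that still reaches within 1 kb of its innermost start had 14.4 and 13.3, with its summit 1354 bases after that start in replicate 1. The second start cluster of *Klf3*, which serves 2 coding transcripts, had 20.6 in replicate 1 and 25.9 in replicate 2, with its summit 8.50 kb into the gene. The window of the inner start of *Klf6* was met at its edge by the 3582 bp region of the first start, and the region whose summit lay 169 bases after this inner start in replicate 1 had 11.1 and 10.6. At *Klf13* the first 2 clusters lay under the same 4310 bp region, and the second cluster of *Klf9*, a start of a noncoding transcript, was met only by the edge of the region of the first.

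The loci of the 10 genes held 115 shared regions, 62 with a q-value of at most 1e-10 and 180 when the flanks were extended to 100 kb. Of the 115, 14 lay at an own start, 31 in the rest of the gene bodies, 69 in the flanks and 1 at the start of another protein-coding gene, *Cfap100* in the locus of *Klf15* (12.8 and 12.6). Every KLF locus held at least 2, where 87.9% of protein-coding loci held at least 1. For 80 of the 115 the nearest protein-coding start belonged to the KLF gene itself.

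**Figure D3:**
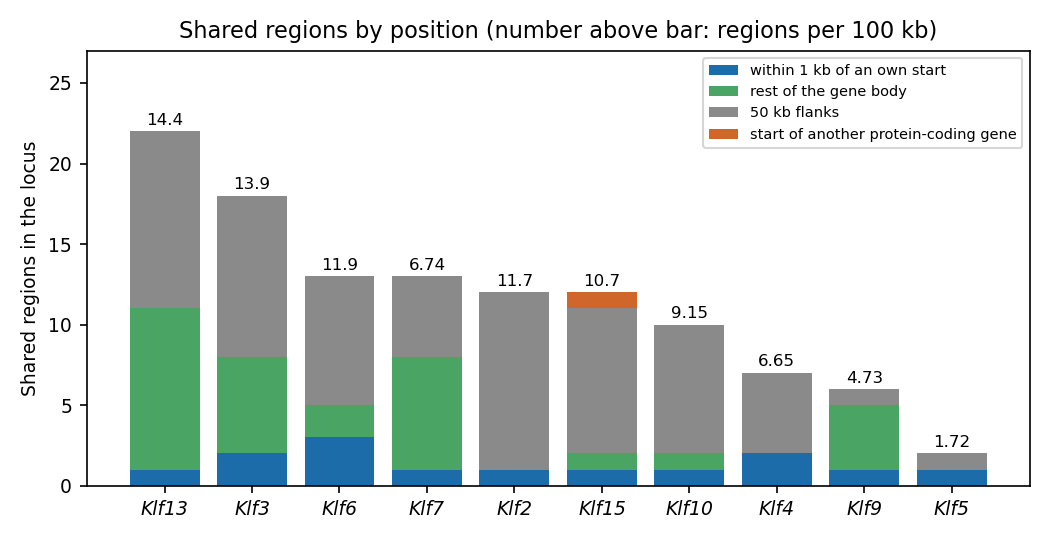
Number of shared regions in the locus of each KLF gene (vertical axis), stacked by position, with the number per 100 kb above each bar. *Klf13* had 22 and *Klf5* 2, and the orange segment is the start of *Cfap100*.

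*Klf13* had 22 regions (14.4 per 100 kb), *Klf3* 18 (13.9), *Klf6* 13 (11.9), *Klf2* 12 (11.7) and *Klf15* 12 (10.7). *Klf10* had 10 (9.15), *Klf7* 13 (6.74), *Klf4* 7 (6.65), *Klf9* 6 (4.73) and *Klf5* 2 (1.72). The median of the 10 was 9.90 per 100 kb, against 5.41 for all protein-coding loci, and 8 of 10 were above the latter. It fell to 6.02 when only regions nearest to the start of the KLF gene were counted and to 5.10 with a q-value of at most 1e-10, settings in which the median of all loci was not recomputed. *Klf13* was at percentile 93.5 and *Klf5* at percentile 19.7. The order of the loci depended on how regions were counted. With the peaks of replicate 1 alone, *Klf2* (15.6 per 100 kb) and *Klf6* (14.7) were above *Klf13* (14.4), and with those of replicate 2 alone *Klf6* had 16.5 and *Klf13* 16.4. With a q-value of at most 1e-10, *Klf3* was highest at 10.04 and *Klf13* had 5.90. *Klf5* had 6.88 with replicate 2 alone, above *Klf4* (6.65) and *Klf9* (5.52).

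Across the 10 genes, which share their libraries, Spearman's rho of the mean fold enrichment at a start with the number of regions in the locus was 0.64, given as a description. *Klf5* and *Klf15* were exceptions. *Klf5* had a start at percentiles 92.9 and 91.4, yet its locus held 1 further shared region, 2999 bases upstream, with 7.61 in replicate 1 and 5.78 in replicate 2. A further 6 peaks in its locus were in replicate 2 alone, the highest at 4.02. *Klf15* had the lowest start and 12 regions in its locus, but for 2 of these 12 was it the gene with the nearest protein-coding start. The same count was 3 of 12 for *Klf2*, 10 of 22 for *Klf13* and 6 of 10 for *Klf10*. In the loci of *Klf3*, *Klf4*, *Klf5*, *Klf6*, *Klf7* and *Klf9* it covered every region.

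**Figure D4:**
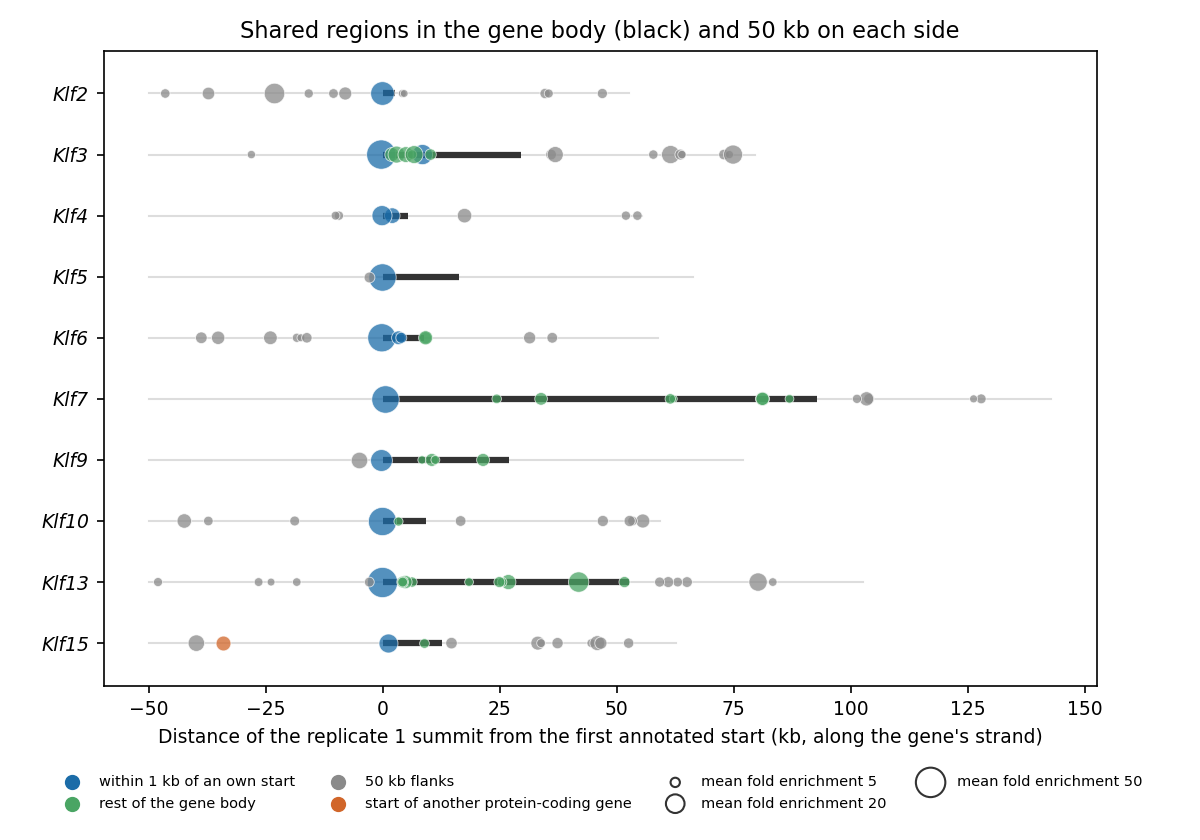
Shared regions of each KLF locus by distance of the replicate 1 summit from the first start (horizontal axis, kb along the strand of the gene). Circle area follows the mean fold enrichment, colour the position, and the black bar is the gene body. The large circles at 0 kb are the starts, and *Klf2*, *Klf3* and *Klf13* have the largest circles away from them.

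The 100 regions in gene bodies and flanks had medians of 6.25 (replicate 1) and 6.03 (replicate 2) in fold enrichment. The 78019 shared regions of the genome away from protein-coding starts had 5.98 and 5.28. In both replicates 47 of the 100 were above these medians, beside 38.6% of the 78019. The 3 with the highest means lay in the loci of *Klf2*, *Klf13* and *Klf3*.

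By the mean of both replicates, the highest region away from an own start was in the locus of *Klf2*, 23.1 kb upstream (chr8:72295220-72296217), between genes. It had 28.5 in replicate 1 and 19.9 in replicate 2, at percentiles 99.3 and 97.0 of the regions away from starts. In replicate 2 an intronic region of *Klf13* was higher, at 21.6, and the replicate ranges of these 2 regions overlapped, so their order is not resolved.

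That region is shown because its mean was the highest of the 10 loci away from a start (200 bp around the replicate 1 summit, chr8:72295821-72296020, plus strand; the capitals mark CACCC on the reverse strand).
Klf2, upstream: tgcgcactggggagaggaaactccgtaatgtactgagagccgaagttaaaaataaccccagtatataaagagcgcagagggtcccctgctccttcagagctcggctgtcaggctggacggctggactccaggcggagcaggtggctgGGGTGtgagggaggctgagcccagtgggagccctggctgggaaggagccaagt
Neither GATAA nor CTA and TAG with 4 bases between them was found in this window, and looser spellings of the MEF2 box were not searched. The nearest protein-coding start belonged to the predicted gene *Gm10282*, so its link to *Klf2* is one of position within 50 kb. Regions 7997 bases and 37.2 kb upstream had 11.7 and 10.3 in replicate 1 and 7.79 each in replicate 2. The body of *Klf2* beyond the region at its start held no shared region.

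At *Klf3* the region away from a start with the highest mean lay 74.8 kb after the first start (chr5:64877918-64878784), beyond the end of the gene, with 23.9 in replicate 1 and 17.8 in replicate 2. Another at 61.5 kb had 18.5 and 19.4, within the replicate range of the former, so their order is not resolved. It held 4 CACCC matches. Its window also held CCGGAAG. Both regions had *Klf3* as their nearest protein-coding start.

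The window of the region at 74.8 kb is given since it had 2 CACCC matches side by side (capitals, reverse strand; chr5:64878136-64878335, plus strand).
Klf3, downstream: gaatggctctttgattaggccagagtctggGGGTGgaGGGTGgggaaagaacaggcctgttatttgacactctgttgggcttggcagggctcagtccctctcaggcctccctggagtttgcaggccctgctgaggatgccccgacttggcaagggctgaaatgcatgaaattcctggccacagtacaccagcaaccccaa
In the body of *Klf3*, 6 further regions lay between 1.96 and 10.2 kb from the first start. A region at 2.95 kb had 16.6 and 16.3, and one at 4.94 kb had 15.5 and 13.1. The region at 6.71 kb had 10.9 in replicate 1 and 25.9 in replicate 2, where it was part of the peak of the second start cluster, so the latter value is that of the start.

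In *Klf13* the highest region away from a start was intronic, 41.9 kb into the gene (chr7:63896349-63897683), with 26.1 and 21.6. It also covers the start of *Gm27252*, a noncoding transcript. A region 80.2 kb from the first start and past the end of the gene had 19.6 and 18.9, and held the 1 match to the cAMP response element in the 115 windows. Another intronic region, at 26.9 kb, had 13.6 and 12.6 and held a MEF2 box.

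The intronic region at 41.9 kb is shown because its mean was the highest inside a KLF gene body, with 1 GATAA in capitals (chr7:63896958-63897157, minus strand).
Klf13, intron: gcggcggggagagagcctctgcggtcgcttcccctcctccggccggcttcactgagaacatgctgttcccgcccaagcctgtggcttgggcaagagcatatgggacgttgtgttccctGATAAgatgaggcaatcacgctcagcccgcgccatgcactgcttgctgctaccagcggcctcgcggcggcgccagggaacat
Its GC content was 64.5%, while the 100 regions of gene bodies and flanks had a median of 53%. Their ratio of observed to expected CpG was 0.210, the same as that of all regions away from protein-coding starts, 0.214, after rounding to 2 digits.

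*Klf15* had 17.4 and 13.8 at a region 39.8 kb upstream, inside *Cfap100*, a gene of ciliary axonemes, and 14.1 and 11.3 at a region 45.8 kb downstream of the first start, inside *Aldh1l1*, an enzyme of folate metabolism. Another, at 33.1 kb and also inside *Aldh1l1*, had 13.0 and 9.05. All 3 thus lay within neighbouring genes. *Klf9* had 16.3 and 15.1 at a region of 2921 bp that lay 5.06 kb upstream and covered the start of the lincRNA *2410080I02Rik*. Its introns held regions with 11.1 and 8.04 at 10.5 kb and with 9.51 and 9.80 at 21.4 kb.

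*Klf4* had 13.6 and 10.6 at a region 17.5 kb after the start, past the end of the gene, and no other region of its flanks was over 5.78 in either replicate. It had 66.5% GC and a CpG ratio of 0.814, near those of starts, though no annotated protein-coding or noncoding start lay within 1 kb of it. A weaker flank region (chr4:55480407-55480688) with 5.43 and 4.27 had 64.0% and 0.658, also without such a start. The former is given for its composition (chr4:55514884-55515083, minus strand; capitals mark CCGGAAG and CACCC).
Klf4, downstream: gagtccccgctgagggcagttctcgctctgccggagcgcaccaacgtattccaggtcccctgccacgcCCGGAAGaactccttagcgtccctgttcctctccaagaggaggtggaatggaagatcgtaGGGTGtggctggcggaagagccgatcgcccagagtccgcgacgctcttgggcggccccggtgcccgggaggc

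*Klf6* had 13.3 and 9.55 at its 3′ end (chr13:5869789-5871162), 11.1 and 10.3 at 24.0 kb upstream and 11.7 and 8.80 at 35.2 kb upstream. *Klf7*, with the longest gene body of the 10 at 92836 bp, had 7 further regions in its body, of which 2 intronic neighbours 81.1 kb into the gene shared 1 replicate 1 peak at 11.7 and had 10.6 and 8.30 in replicate 2. Past its end, a region at 103 kb had 14.4 and 8.80. *Klf10* had 14.9 and 9.05 at 42.4 kb upstream and 11.1 and 11.3 at 55.6 kb after the start. At these 3 genes no region away from a start came near the fold enrichment of the start.

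**Figure D5:**
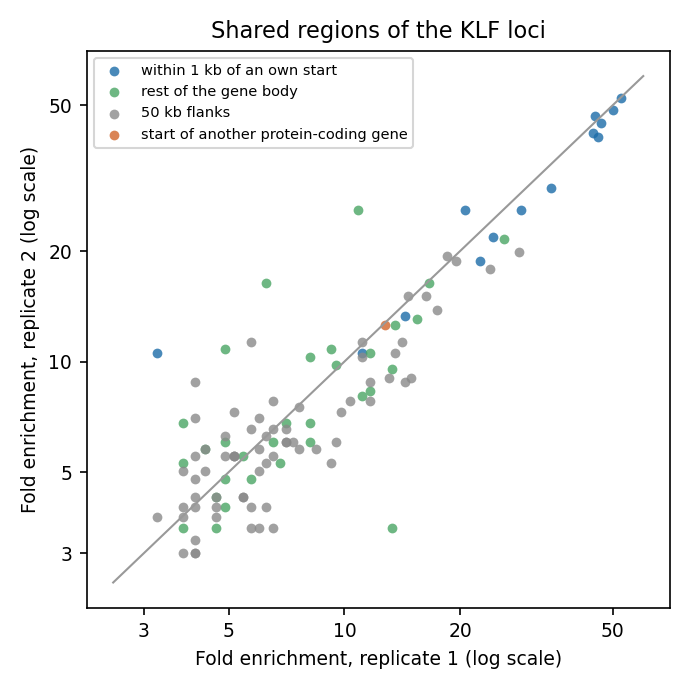
Fold enrichment of the 115 shared regions of the KLF loci in replicate 1 (horizontal axis, log scale) and replicate 2 (vertical axis, log scale), coloured by position, with the line of equal values. Starts lie at the upper right near the line, and the points far from it include regions that share a longer peak in 1 replicate, such as the *Klf3* intron at 10.9 and 25.9.

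In the plot of both replicates, 16 of the 115 regions had a summit outside the shared span in at least 1 replicate. Their value there is that of the whole peak, whose summit lies elsewhere. These include long peaks that cover more than 1 region and short peaks that overlap only at their edges. The summits of the replicates were at most 50 bp apart in 66 regions, and the median gap was 43 bp. Some peaks were found in 1 replicate alone. Of 128 peaks of replicate 1 in the KLF loci, 16 had no counterpart, the highest at 4.89, and of 137 of replicate 2, 30 had none, the highest at 6.28.

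Of the 7 other KLF genes, 6 had a shared region at a start, and *Klf17* had none. Of all protein-coding genes 67.6% had such a region, and neither this count nor that of the SP genes below was tested against that share. The highest was *Klf11*, a relative of *Klf10*, with 42.9 and 41.0, and the lowest *Klf14* with 5.16 and 4.78. *Klf1*, the erythroid member, had 21.7 and 26.6. Their median was 23.9. Of the 9 related SP genes, 7 had a region, led by *Sp4* (64.1 and 59.8) and *Sp1* (53.5 and 55.6), with a median of 30.9, and *Sp6* and *Sp7*, which act in teeth and bone, had none. By fold enrichment at a start the 10 genes described here had a higher median, 43.2, than either list. By density of regions in the locus the SP genes had the higher median, 10.6 per 100 kb against 9.90, and the other KLF genes had 4.86. The 10 genes were a named selection of the family. They and the lists were chosen with earlier results of these data known, and were not tested against each other.

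The list of the route from MEKK3 to *Klf2* and *Klf4* in endothelium also holds genes that do not carry this signal onward, such as those of a complex that restrains MEKK3. Of the genes in this list, 11 of 11 were accessible at a start in the whole heart, beside 67.6% of all protein-coding genes. Their median was 28.1, against 24.5 for all accessible genes. The highest was *Pdcd10*, a component of the cerebral cavernous malformation complex that restrains MEKK3, with 63.6 and 55.6. *Map3k3*, which encodes MEKK3, had 54.1 and 50.0, and *Mapk7*, which encodes ERK5, had 28.8 and 27.4. *Mef2c* had 23.1 in both replicates. The lowest was *Heg1*, a receptor tied to the complex, with 13.3 and 12.8.

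Partners and known targets of KLFs were accessible in 10 of 10 genes, beside 67.6% of all protein-coding genes. They had a median of 3.5 start clusters, against 2 for all protein-coding genes, so more windows were searched per gene. Their median fold enrichment was 24.7, near that of all genes. *Sin3a*, the corepressor recruited by *Klf9*, *Klf10* and *Klf13*, was highest with 48.3 and 47.3, and *Ctbp1*, a partner of *Klf3*, had 40.5 and 36.7. The 4 targets in the list were lower than these partners. *Thbd*, which encodes thrombomodulin, had 17.1 and 17.8, and *Nos3*, which encodes endothelial nitric oxide synthase, was lowest with 8.15 and 7.29. The targets outside endothelium lay between these, with 10.9 and 13.6 at *Cdkn1a*, a cell cycle inhibitor, and 12.2 and 10.3 at *Tagln*, a smooth muscle gene. The marker lists of the heart were all below the median gene of 24.5. Their medians were 13.3 for cardiomyocytes, 12.03 for endothelium and endocardium and 16.4 for epicardium. The blood list had 14.6, from the 2 genes with a region. Neural, skeletal muscle and liver markers had 6.91, 5.21 and 4.33, from 1 gene each.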

How the data were processed

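ATAC-seq was performed by the authors on 2 replicates of wildtype E11.5 hearts (single-end reads of 50 bp). Per the methods, reads were trimmed with Trim Galore 0.6.6, mapped to GRCm38/mm10 with Bowtie2 2.4.2 and cleared of duplicates and of reads under mapping quality 10 with SAMtools 1.12, and peaks were called by MACS2 in each replicate without a local background. The lists do not match the stated calling in full. The largest p-values are 0.000476 and 0.00104, below the stated limit, and the shortest peak of 200 bp is longer than the stated extension, so a site without a peak is one that missed the limit actually used. Removal of reads that map poorly leaves repeated sequence underrepresented. In the deposited lists, fold enrichment is a ratio at the summit, the −log10 p and −log10 q values belong to the same summit, the score is the authors' scaled −log10 q value and the last column is the summit's offset. Fold enrichment was used as the value, and counting intervals were left out since the lists carry no read totals.

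Shared regions were made with bedtools 2.31.1 (overlap of at least 1 bp) and matched to GENCODE M21. Motifs were searched with Python 3.11.15 and pysam 0.24.0 in the GRCm38 reference, on both strands. NumPy 2.4.6, pandas 2.3.3, SciPy 1.17.1 and Matplotlib 3.10.9 were used for summaries and plots. On simulated peak lists, the overlap code recovered 4200 of 4200 pairs. The KLF genes and the gene lists were chosen with earlier results of these data known. Each KLF gene was described at every start, with its highest region there and up to 3 highest regions elsewhere. Loci with several regions of interest, such as *Klf3*, were given further regions after their values were seen. Members of the lists were named as the highest, the lowest and those without a region, and *Klf1*, *Sp1*, *Map3k3*, *Mapk7*, *Mef2c*, *Ctbp1*, *Thbd*, *Cdkn1a* and *Tagln* were added as members of known function.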

Additional observations from a re-analysis of the deposited data

How the results depend on the processing

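All 10 KLF genes kept a shared region at a start in each alternative that bears on starts, out of 13 run, which changed the overlap, the q-value limit, the start window, the flank, the replicates used and the sequence window. The 115 regions of the loci became 62 with a q-value of at most 1e-10 and 180 with 100 kb flanks. The median density of 9.90 regions per 100 kb became 5.10 with that q-value, 8.96 with a reciprocal overlap of at least 50%, 8.06 with 100 kb flanks and 6.02 for regions whose nearest protein-coding start is the KLF gene, and 10.8 to 11.7 with a replicate left out. Why the median moved was not tested. Of 117 values recomputed, 109 stayed within their limits and 8 moved, and a change of direction was not looked for. For the fold enrichment at the start of a single gene, the limit was the SD of its replicate values. Leaving a replicate out cannot exceed that limit, and the other settings mostly read the same peak again. That these values stayed is therefore no measure of robustness. No paired analysis was possible because all samples belong to 1 group. Read totals are unknown, so a peak that one list lacks was not detectable at its depth and is not shown to be absent.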
